A study of Mus musculus with 8 samples.

Results

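The genes described here are 6 genes of cytokinesis and the central spindle, Prc1, Ect2, Racgap1, Anln, Cit and Cep55, and they were taken by name. Every probe set of the array whose single gene symbol is one of these names was used, which gave 14 probe sets out of 45037 tested, and 6 genes out of 18193. The cells were NIH3T3, an established line of mouse embryonic fibroblasts, which expressed 2 fluorescent reporters: mCherry-hCdt1(30/120), built on the licensing factor Cdt1, and mVenus-p27K-, built on the CDK inhibitor p27. All cells, in both groups, carried both reporters, were held without serum and were then given medium with 10% serum for 5 h. They were sorted by flow cytometry into G0 cells, positive for mVenus and mCherry, and G1 cells, negative for mVenus and positive for mCherry. Total RNA of each sorted population was hybridised to 4 Affymetrix mouse arrays, 8 arrays in all. The labels do not say that the replicates came from separate cultures, and the p-values therefore reflect no more than the scatter among these 8 samples, part or all of which may be technical.

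Cytokinesis is the physical division of the cell after the chromosomes have separated. Antiparallel microtubules are bundled between the separated chromosomes into the central spindle, which recruits the activator of the small GTPase RhoA to the cell equator. RhoA then drives an actomyosin ring that closes the furrow, and the last bridge between the daughter cells, the midbody, is cut by the ESCRT membrane-remodelling machinery. Prc1 bundles the microtubules, Racgap1 and its motor partner Kif23 form the centralspindlin complex, and Ect2 is the exchange factor that activates RhoA. Anln (anillin) is the scaffold that ties the ring to the membrane, Cit (citron kinase) stabilises the midbody, and Cep55 recruits the abscission machinery to it. Many of these genes are known as late cell cycle genes, which are held down in quiescent cells and transcribed in G2 and M.

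The deposited values are log2 expression with the median of every probe set over the 8 arrays set to 0, where base 2 is an assumption. Differences between groups are therefore measured and absolute levels are not, and no gene's level can be set against another's. Where the groups do not overlap, the highest G0 value and the lowest G1 value are mirror images by this construction. Differences are G1 minus G0 from limma, with the labelling batch as covariate, and a p-value counts as passed when it is under 0.05 after Benjamini-Hochberg adjustment for all 45037 probe sets. Where a gene had several probe sets, 1 represented it, chosen by its suffix and number without regard to the outcome. G0 replicate 3 and G1 replicate 4 stood apart from the other 6 arrays in their spike-in controls, which does not match the labelled batches. Whether the titles of G0 replicates 3 and 4 are exchanged was not tested, and values that use the labelled batches take the titles as given. Results are given with and without these 2 arrays further on.

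Prc1, Cep55 and Anln rose in G1, by 8.30-fold, 7.15-fold and 5.02-fold. Ect2, Racgap1 and Cit were 3.60-fold, 4.52-fold and 5.24-fold higher on their representing probe sets, but did not pass the test in limma (adjusted p = 0.062, 0.072 and 0.305). So 3 of 6 genes passed as higher, where 0.5% of all genes did (91 of 18193, or 0.522% with both directions counted). Among all 14 probe sets 4 passed, where 0.373% of all probe sets did. In all 6 genes the 4 G1 values of the representing probe set lay above the 4 G0 values, an arrangement found in 3.79% of all genes. The same held for 10 of the 14 probe sets, against 3.16% of all probe sets. The median difference of the 6 genes was 2.36, beside −0.06 over all 18193 genes. The 6 genes were chosen with earlier results of these data known, so these shares are descriptions and no independent test. These are bulk populations, so fewer cells with a transcript and less transcript per cell cannot be told apart.

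**Figure D1:**
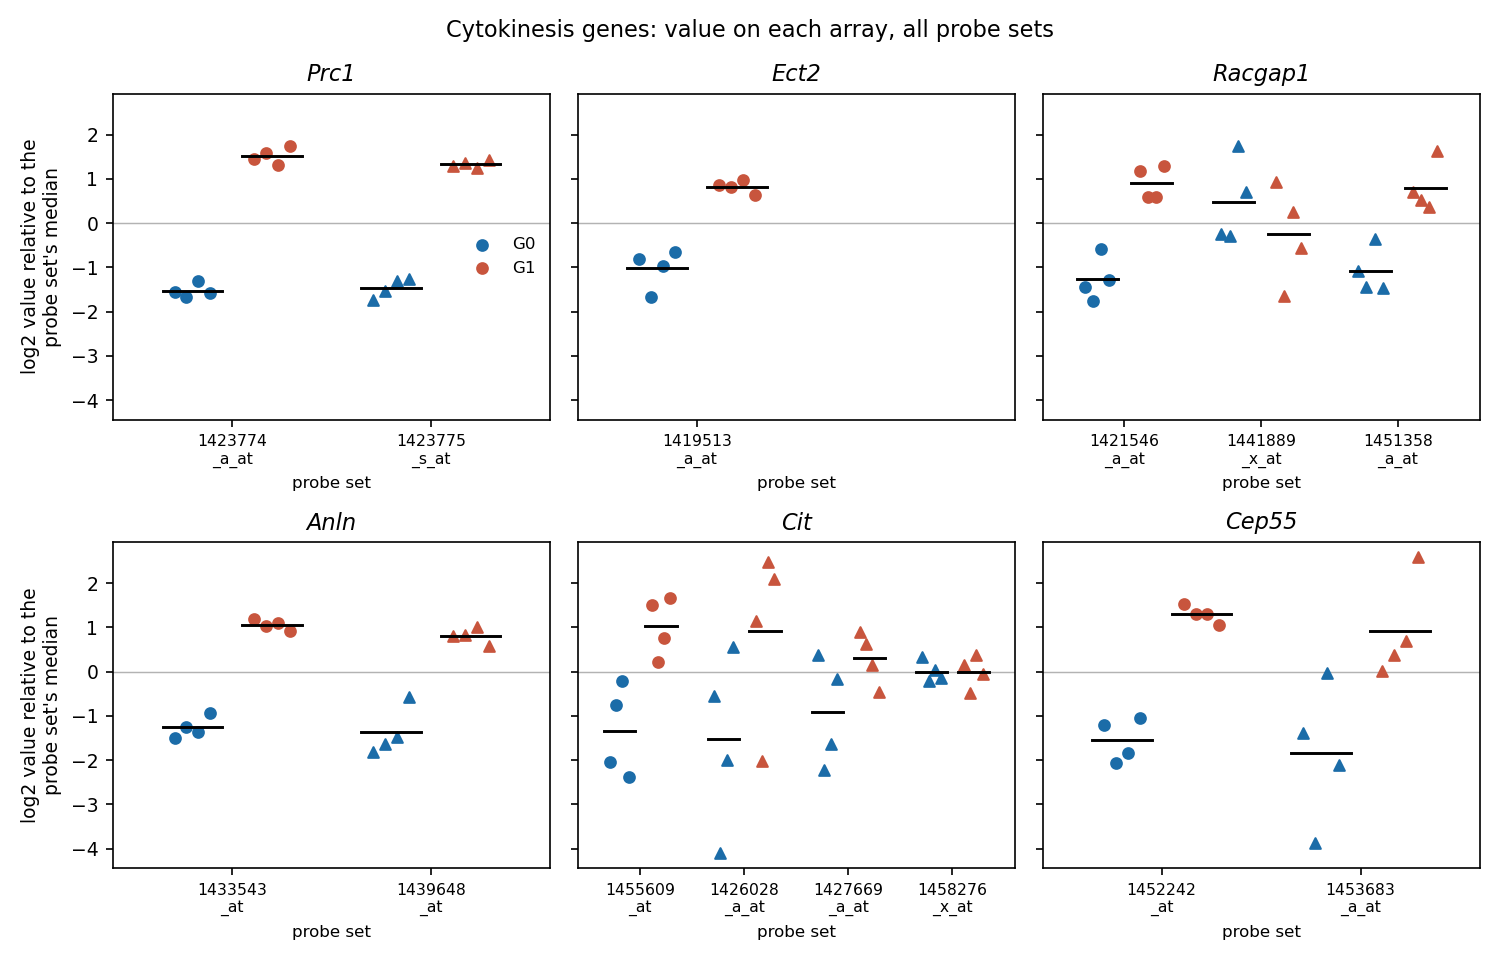
Log2 value relative to the probe set's median (vertical axis) on each of the 4 G0 arrays (blue) and 4 G1 arrays (red), with 1 panel per gene and 1 pair of columns per probe set; circles mark the probe set that represents the gene, triangles the others, and black lines the group means. The groups are widely apart for both Prc1 probe sets, while 3 of the 4 Cit probe sets and 1 of the 3 Racgap1 probe sets have overlapping groups.

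The promoters of these genes are shown because 5 of the 6 hold a short element near the listed start of transcription, seen in windows chosen afterwards. The CHR element, TTTGAA, is a textbook element of late cell cycle promoters, where the DREAM complex binds to hold genes down in quiescence. The promoter sequences are those of RefSeq for mouse assembly GRCm38.p6, and all 6 genes had an entry. Positions are counted from the most upstream start listed, with −1 as the last base before it and 1 as the start. Prc1, Ect2 and Cep55 had 2 listed starts, and for them only the most upstream was searched. The shares below are over all 32851 promoters, which belong to 27025 genes, so they count starts and not genes. In the window from 250 bases before to 50 after the start, TTTGAA was present on either strand (TTCAAA on the other) in 5 of 6 genes, all but Cit, and in 17.9% of the 32851 promoters of the table. In the last 70 bases of that window, 20 before to 50 after the start, it was present in the same 5 genes and in 3.3% of all promoters. Both of these windows were chosen after a match had been seen at the edge of the 250 bases before the start. In those 250 bases alone only Ect2 had a match, at −114 to −109, against 16.0% of promoters. A match is a description of the letters and not evidence of binding. The stretches around the matches near the start read as follows on the strand of the gene, with the element in capitals.
Prc1, −5 to 1, chr7:80294434-80294463, plus strand: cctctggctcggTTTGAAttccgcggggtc
Racgap1, 6 to 11, chr15:99651634-99651663, minus strand: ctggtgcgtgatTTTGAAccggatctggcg
Anln, 29 to 34, chr9:22389161-22389190, minus strand: tgaaattcaaatTTTGAAcggccgtggtag
Cep55, 25 to 30, reverse orientation, chr19:38054996-38055025, plus strand: acagccgcgggaTTCAAActcccggaagcg
Ect2, 40 to 45, chr3:27153829-27153851, minus strand: cgactggattttTTTGAAtcgga

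Anln held a second match in reverse orientation at 22 to 27, which nearly touches the one shown. The CCAAT box, bound by the factor NF-Y, was present in the 250 bases before the start (CCAAT, or ATTGG on the other strand) in Prc1, Ect2 and Racgap1, which is 3 of 6, against 33.8% of all promoters. Ect2 had it at 2 places, at −96 to −92 and −55 to −51. Prc1 had it at −37 to −33 and Racgap1 in reverse orientation at −12 to −8. TTTAAA, a variant of the CHR element, and the E2F-type words GCGCGAAA, GGCGGGAA and TTCGCGCC were in 0 of the 6, and in 12.1%, 0.3%, 1.9% and 0.4% of all promoters. The 250 bases before the start of the 3 promoters with a CCAAT box are given with the CCAAT box, and in Ect2 also the upstream TTTGAA, in capitals.
Prc1, chr7:80294201-80294450, plus strand: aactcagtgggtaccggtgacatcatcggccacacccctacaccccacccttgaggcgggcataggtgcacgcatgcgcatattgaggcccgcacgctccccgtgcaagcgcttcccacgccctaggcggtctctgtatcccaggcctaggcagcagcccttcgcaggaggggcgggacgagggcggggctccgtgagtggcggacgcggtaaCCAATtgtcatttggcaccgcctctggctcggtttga
Ect2, chr3:27153879-27154128, minus strand: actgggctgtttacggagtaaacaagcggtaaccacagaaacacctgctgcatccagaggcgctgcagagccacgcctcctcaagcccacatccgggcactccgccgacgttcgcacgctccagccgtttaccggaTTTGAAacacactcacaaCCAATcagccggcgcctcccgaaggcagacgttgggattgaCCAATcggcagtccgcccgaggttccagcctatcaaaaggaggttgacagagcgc
Racgap1, chr15:99651657-99651906, minus strand: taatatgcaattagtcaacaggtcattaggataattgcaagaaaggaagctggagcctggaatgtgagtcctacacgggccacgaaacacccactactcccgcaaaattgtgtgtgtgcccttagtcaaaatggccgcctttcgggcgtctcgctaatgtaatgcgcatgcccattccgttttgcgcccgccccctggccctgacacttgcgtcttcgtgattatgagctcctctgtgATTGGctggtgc

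The microtubule bundler Prc1 differed most. Probe set 1423774_a_at read −1.55, −1.66, −1.31 and −1.59 on G0 replicates 1 to 4, and 1.46, 1.58, 1.31 and 1.75 on G1 replicates 1 to 4. Every G1 array was at least 2.63 above every G0 array, and the scatter within groups was the smallest of the 6 representing probe sets. The group means were −1.53 ± 0.15 in G0 and 1.53 ± 0.18 in G1 (SD, n = 4), a log2 difference of 3.05 (SE 0.20, 95% confidence interval 2.58 to 3.53, limma adjusted p = 0.0089). It ranked 23rd of 18193 genes by the size of the rise. The second probe set, 1423775_s_at, repeated this, at −1.46 ± 0.22 in G0 and 1.33 ± 0.07 in G1 (difference 2.80, SE 0.21, limma adjusted p = 0.0089). Its 4 G1 arrays lay between 1.26 and 1.43.

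Racgap1, the GTPase-activating subunit of centralspindlin, was read by 3 probe sets that did not behave alike. On 1421546_a_at the G0 arrays read −1.43, −1.75, −0.58 and −1.29, and the G1 arrays 1.18, 0.58, 0.59 and 1.29. The groups did not overlap, and G0 replicate 3 was the G0 array nearest to G1. The difference was 2.18 (SE 0.35, 95% confidence interval 1.36 to 2.99, limma adjusted p = 0.072). The same array was nearest on 1451358_a_at, at −0.36 beside −1.46 to −1.08 on the other G0 arrays, with G1 between 0.36 and 1.63 (difference 1.89, SE 0.39, limma adjusted p = 0.184). The third, 1441889_x_at, has the suffix for possible cross-hybridisation and no accession in the platform annotation. Its G0 arrays spanned −0.29 to 1.75 and its G1 arrays −1.64 to 0.94, so the groups overlapped (difference −0.74, 95% confidence interval −2.34 to 0.87). With the mean of all 3 probe sets Racgap1 differed by 1.11 (SE 0.41, limma adjusted p = 0.636).

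Ect2, which activates RhoA at the equator, had a single probe set, 1419513_a_at. G0 arrays read −0.82, −1.66, −0.97 and −0.64, and G1 arrays 0.86, 0.83, 0.97 and 0.64. All G1 arrays lay close together and above all G0 arrays, among which replicate 2 was the lowest. The means were −1.02 ± 0.45 and 0.82 ± 0.13 (SD, n = 4), a difference of 1.85 (SE 0.29, 95% confidence interval 1.18 to 2.52, limma adjusted p = 0.062). This was the smallest difference of the 6, although it still ranked 303rd of 18193 genes.

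Anln, the ring scaffold, rose. Probe set 1433543_at read −1.50, −1.26, −1.35 and −0.93 in G0 and 1.19, 1.04, 1.11 and 0.93 in G1. The G1 arrays were tight (SD 0.11) and lay at least 1.86 above any G0 array. The difference was 2.33 (SE 0.23, 95% confidence interval 1.80 to 2.86, limma adjusted p = 0.011). On 1439648_at, G0 replicate 4 stood at −0.58, above the −1.82 to −1.47 of the other G0 arrays, and the G1 arrays ran from 0.58 to 1.01. The difference there was of like size but with a larger error (2.18, SE 0.35, limma adjusted p = 0.073).

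Cit, the midbody kinase, was the least settled of the 6. Its representing probe set, 1455609_at, read −2.05, −0.75, −0.22 and −2.38 in G0 and 1.51, 0.22, 0.76 and 1.68 in G1. The groups just failed to overlap, and the spread within them was the largest of the 6 representing probe sets. The difference was 2.39 (SE 0.59, 95% confidence interval 1.00 to 3.78, limma adjusted p = 0.305). On 1426028_a_at the groups overlapped, with G0 arrays at −4.10 to 0.55 and G1 arrays at −2.01 to 2.47 (difference 2.45, 95% confidence interval −0.19 to 5.09). On 1427669_a_at G0 ran from −2.23 to 0.37 and G1 from −0.46 to 0.89 (difference 1.22, 95% confidence interval −0.36 to 2.80). The quietest probe set, 1458276_x_at, stayed between −0.49 and 0.37 on all arrays and differed by −0.01 (95% confidence interval −0.62 to 0.61). The mean of the 4 probe sets differed by 1.51 (SE 0.45, limma adjusted p = 0.471). Since absolute levels are lost, it cannot be said which of the 4 probe sets had a signal above background.

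Cep55, which acts at abscission, rose. Probe set 1452242_at read −1.21, −2.05, −1.84 and −1.05 in G0 and 1.53, 1.30, 1.32 and 1.05 in G1. All G1 arrays were at least 2.11 above all G0 arrays. The difference was 2.84 (SE 0.31, 95% confidence interval 2.12 to 3.55, limma adjusted p = 0.018), 42nd of 18193 genes. The other probe set, 1453683_a_at, had nearly the same difference, 2.77, with an SE of 0.92 (limma adjusted p = 0.541). Its G0 arrays were spread from −3.86 to −0.03 and its G1 arrays from 0.03 to 2.60, so the groups were separated by 0.05 only. With the mean of both probe sets the call was lost (difference 2.80, SE 0.50, limma adjusted p = 0.113).

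**Figure D2:**
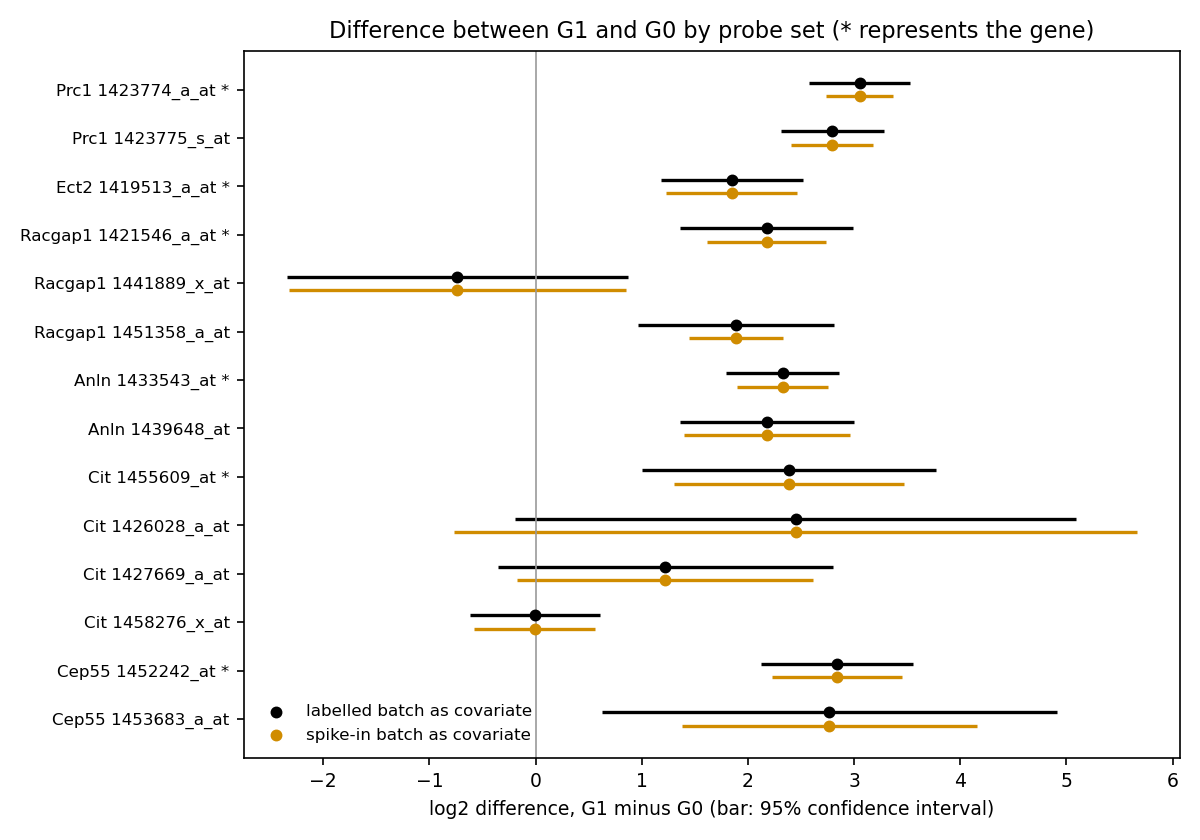
Log2 difference, G1 minus G0 (horizontal axis), of each of the 14 probe sets, with 95% confidence intervals from limma with the labelled batch (black) or the batch shown by the spike-in controls (orange) as covariate; a star marks the probe set that represents the gene. Of the 14 probe sets 12 lie above 0, and the 2 below 0 are the _x_at probe sets of Racgap1 and Cit.

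How many of the 6 passed depended on the batch covariate. The labels place replicate 4 of both groups in the second labelling batch. The bacterial poly-A controls, however, which are spiked into the RNA, were missing from G0 replicate 3 and from G1 replicate 4. A fit that took presence of these spike-ins as its batch gave identical differences, and 5 of 6 genes passed (0.929% of all genes passed as higher), as did 8 of 14 probe sets (0.702%). Racgap1 then passed on 1421546_a_at and 1451358_a_at (limma adjusted p = 0.013 and 0.011), but not on 1441889_x_at (limma adjusted p = 0.739). Ect2 passed (limma adjusted p = 0.037). Among the 6 genes Cit was the exception (limma adjusted p = 0.0998). When the fit was limited to the 6 arrays that carried spike-ins, Prc1 and Anln passed (limma adjusted p = 0.041 and 0.043), where 0.165% of all genes did, 3 of the 14 probe sets passed, where 0.091% of all did, and Cep55 did not (limma adjusted p = 0.061).

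Size and direction varied less than the calls. Within the arrays that carried spike-ins the differences of the representing probe sets were 3.05 for Prc1, 2.28 for Racgap1, 1.93 for Ect2, 2.34 for Anln, 2.56 for Cit and 2.82 for Cep55. Between the 2 arrays without spike-ins they were 3.06, 1.87, 1.61, 2.28, 1.89 and 2.89. Within labelled batch 1 they were 2.96, 2.04, 2.03, 2.48, 1.84 and 3.08, and within labelled batch 2 they were 3.34, 2.58, 1.29, 1.86, 4.05 and 2.11. Cit in labelled batch 2 was the only one of these values more than 1.5 times its 8-array value. Labelled batch 2 and the arrays without spike-ins hold 1 array of each group, so these values have no test, and in labelled batch 2 the G0 array carried spike-ins and the G1 array did not.

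Leaving out single arrays removed the calls more often than it moved the values. In limma fits without G0 replicate 1 or without G0 replicate 3, Prc1, Anln and Cep55 passed, and without G0 replicate 3 Racgap1 did too (adjusted p = 0.043). Without G0 replicate 2, G0 replicate 4 or any of G1 replicates 1, 2, 3 and 4, 0 of the 6 passed, and 0 of all genes did. For Prc1 the adjusted p then reached 0.131 at most, with a difference between 2.96 and 3.14 over the 8 fits. The ranges were 1.63 to 2.03 for Ect2, 2.03 to 2.44 for Racgap1, 2.25 to 2.48 for Anln, 1.84 to 2.77 for Cit and 2.67 to 3.08 for Cep55. At an unadjusted p under 0.05 all 6 genes were higher with all 8 arrays, as were 4.33% of all genes, and all 6 also were in each of the 8 fits. In those 8 fits 1235 to 1658 genes in all were past it, in either direction.

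**Figure D3:**
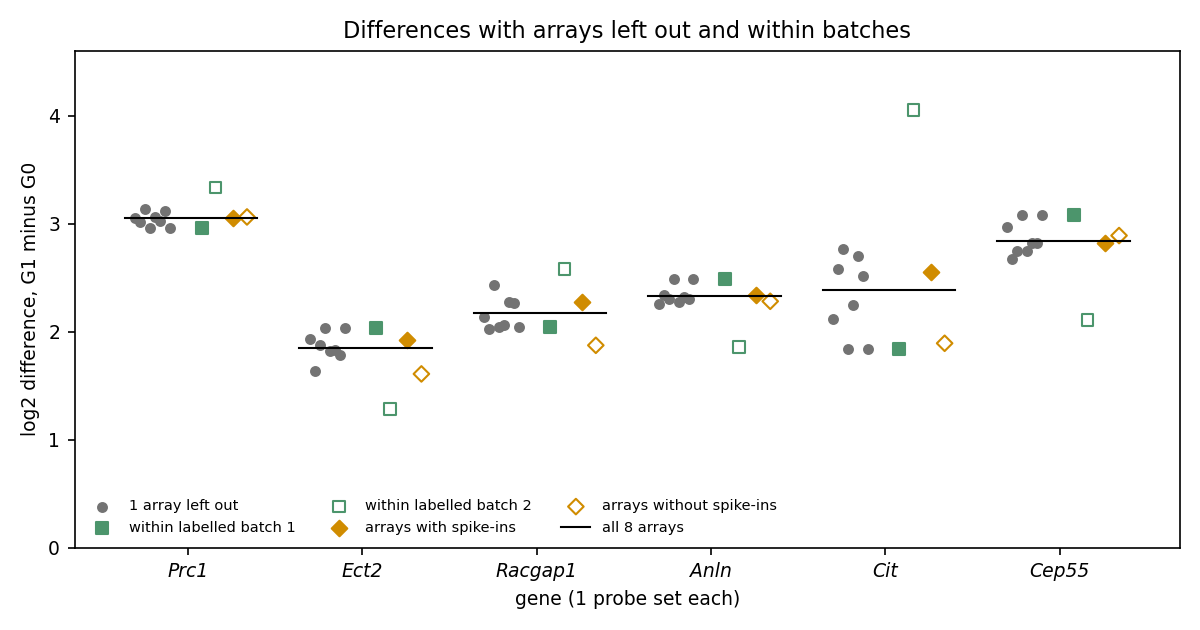
Log2 difference, G1 minus G0 (vertical axis), of the 6 representing probe sets: on all 8 arrays (line), with 1 array left out (grey), within the labelled batches (green squares; open for batch 2, with 1 array per group) and on arrays with or without spike-ins (orange diamonds; open for the arrays without). All values are above 0; those of Cit spread most, from 1.84 to 4.05.

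The other genes of cytokinesis did not move as 1 block. Of 79 further genes listed by role 77 were measured, 9 passed as higher, where 0.5% of all genes did, and 0 passed as lower, and the median difference was −0.01. The list was drawn up with earlier results of these data known. In the chromosomal passenger complex and its partner kinase, which control the central spindle, 5 of 5 rose. Aurkb, the kinase of the complex, rose 11.3-fold (log2 difference 3.50, limma adjusted p = 0.0100) and Birc5, its survivin subunit, 11.1-fold (3.47, limma adjusted p = 0.0089). Incenp, the scaffold, rose 4.82-fold on its representing probe set and Cdca8 (borealin) 5.65-fold. The other Incenp probe sets were looked at afterwards, and 1439436_x_at passed (2.38, SE 0.34, limma adjusted p = 0.047). Its suffix is the one for possible cross-hybridisation. The Incenp probe sets at 2.50 (SE 0.63), 0.57 (SE 0.61) and 0.19 (SE 0.82) did not pass (limma adjusted p = 0.32, 0.92 and 0.99). Plk1, the kinase that triggers Ect2 recruitment by Racgap1, rose 6.95-fold (2.80, SE 0.21, limma adjusted p = 0.0089). The median of the 5 was 2.80. On the 6 arrays with spike-ins 2 of the 5 passed, where 0.165% of all genes passed as higher. These were Birc5 and Plk1 (limma adjusted p = 0.041 for both), and Aurkb, Incenp and Cdca8 did not pass (limma adjusted p = 0.054, 0.061 and 0.065).

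Among 11 central spindle motors and partners 3 passed as higher, where 0.5% of all genes did, and 8 did not pass. The median was 1.63. At an unadjusted p under 0.05 in limma 7 were higher, where 4.33% of all genes were. When presence of spike-ins was taken as the batch 6 passed, where 0.929% of all genes did. Kif20a, which carries the passenger complex to the central spindle, rose 6.73-fold (2.75, SE 0.28, limma adjusted p = 0.013). Kif4, a motor that limits Prc1-bound overlaps, rose 3.88-fold (1.96, SE 0.23, limma adjusted p = 0.022), and Shcbp1, a centralspindlin-binding protein, 12.7-fold (3.66, SE 0.25, limma adjusted p = 0.0089). With the 6 spike-in-bearing arrays alone Kif20a and Shcbp1 passed, where 0.165% of all genes passed as higher, and Kif4 did not (limma adjusted p = 0.065). The lowest value was that of Clasp1, a microtubule stabiliser, at −0.27 (SE 0.61). Kif23, the motor subunit of centralspindlin and partner of Racgap1, did not pass on its representing probe set, 1450827_at, where G0 arrays spanned −1.93 to 2.32 and G1 arrays −0.44 to 1.93 (difference 1.10, SE 0.86). Its other probe sets, looked at after this value was seen, both passed, at 2.21 (SE 0.30, limma adjusted p = 0.040) and 2.48 (SE 0.36, limma adjusted p = 0.0498). Kif20b differed by 0.29 (SE 0.63) on its representing probe set and passed on another, 1439695_a_at (2.50, SE 0.28, limma adjusted p = 0.021). It did not pass on 1440924_at (2.97, SE 1.04, limma adjusted p = 0.58) or 1449612_x_at (0.89, SE 0.34, limma adjusted p = 0.64).

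The lists of later and more general machinery lay near the median of all genes. Of 13 RhoA regulators and effectors 1 passed as higher, where 0.5% of all genes did. This was Arhgap11a, a RhoA-directed GTPase-activating protein, which rose 3.84-fold (1.94, SE 0.25, limma adjusted p = 0.032). The list's median was −0.02. Arhgap11a did not pass on the arrays with spike-ins (limma adjusted p = 0.105). At an unadjusted p under 0.05 in limma 3 of the 13 were higher, Arhgap11a, Diaph3 (1.25) and Net1 (0.63), where 4.33% of all genes were. In the same 3 all G1 values lay above all G0 values, as in 3.79% of all genes. Rhoa itself had the lowest value of that list, −0.99, with an SE of 1.31 on its representing probe set. Its other probe sets differed by −0.09 (SE 0.21) and −0.07 (SE 0.24). Of 13 myosin, actin and ring-associated genes 0 passed (median 0.02). Iqgap3 had the highest difference, 4.01-fold (SE of the log2 difference 0.35, limma adjusted p = 0.104), and the myosin light chain gene Myl9 the lowest, −0.59 on the log2 scale (SE 0.39, limma adjusted p = 0.83). At an unadjusted p under 0.05 in limma, 1 gene of this list was higher, where 4.33% of all genes were.

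None of the 8 septins, the filament proteins of the furrow, passed (limma, 0 also at an unadjusted p under 0.05), with differences from −0.40 for Septin4 to 0.33 for Septin11 and a median of 0.01. Of 18 abscission and ESCRT genes 0 passed and 0 were past an unadjusted p of 0.05 in limma. Their median was −0.17, and 3 of 18 differences were positive, where 44.7% of all genes had a positive difference. The highest was Chmp4c at 1.45 (SE 0.92, limma adjusted p = 0.824) and the lowest Chmp1b at −0.56 (SE 0.28, limma adjusted p = 0.756). In Chmp2b and Vps4a, of ESCRT-III and its disassembly ATPase, all G1 values lay below all G0 values, as in 3.28% of all genes (differences −0.35 and −0.23). Of 9 genes of membrane traffic to the furrow 0 passed, with 0 at an unadjusted p under 0.05 in limma (median −0.09), from Mical3 at −0.44 to Rab35 at 0.13. Over all 178 probe sets of the 77 genes, 16 passed as higher, on 11 genes, where 0.373% of all probe sets did, and 0 as lower.

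**Figure D4:**
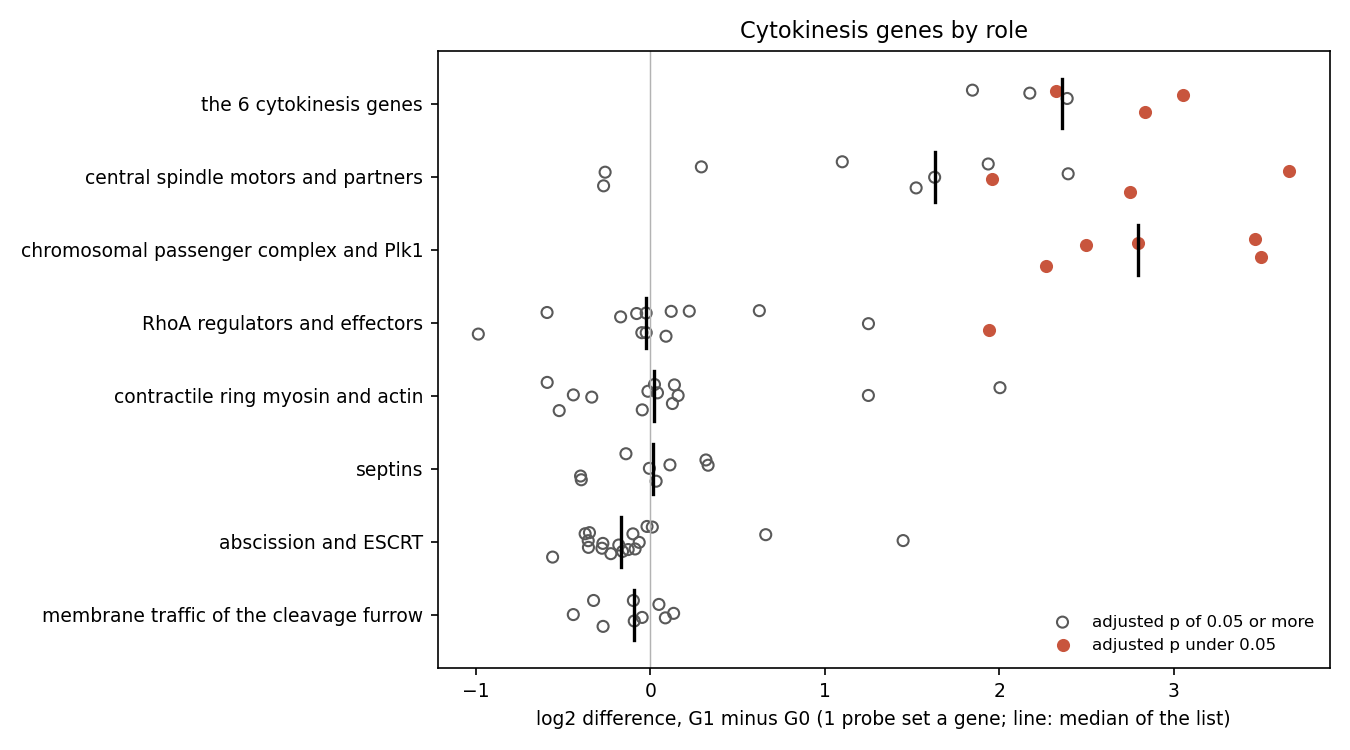
Log2 difference, G1 minus G0 (horizontal axis), of each measured gene on its representing probe set, by list (rows); filled points have a limma adjusted p under 0.05, open points do not, and the black line is the median of the list. The lists of the 6 genes, of the central spindle motors and of the passenger complex have medians of 2.36, 1.63 and 2.80, and the other 5 lists have medians between −0.17 and 0.02.

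A few representing probe sets in these lists stood far from the rest on the arrays without spike-ins. Cfl1 read 3.89 on G0 replicate 3 and 4.06 on G1 replicate 4, and lay between −0.18 and 0.08 on the other 6 arrays. Actb read −3.54 and −3.74 on the same 2 arrays and from −0.06 to 0.09 on the others. Of the 14 probe sets of the 6 genes none had a tied lowest value, which 417 probe sets of the table had. Values near background need not be tied, so this does not show that any signal was above background.

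The genes outside the 6 with the most similar pattern were found by the root mean square distance over the 8 arrays between their values and the mean of the 6 representing probe sets. That mean was −1.43, −1.52, −1.05 and −1.31 on G0 replicates 1 to 4 and 1.29, 0.93, 1.01 and 1.22 on G1 replicates 1 to 4. The nearest 10 were Kif22, a chromokinesin (0.18), Mad2l1, a spindle checkpoint protein (0.18), Cenph, a kinetochore subunit (0.22), Fbxo5, an inhibitor of the anaphase-promoting complex (0.24), the histone chaperone Asf1b (0.24), Incenp (0.25), the repair gene Brca1 (0.25), the kinetochore motor Cenpe (0.26), the centriole kinase Plk4 (0.26) and the mitotic kinase Cdk1 (0.26). Their differences ran from 2.11 for Cdk1 to 2.62 for Mad2l1, near that of the mean, as picking them by closeness to it ensures. Of the 6 genes themselves, Anln (0.23) and Racgap1 (0.27) were nearest to that mean, Prc1 was at 0.35, Cep55 at 0.41 and Ect2 at 0.42, and Cit was farthest (0.67). Each of the 6 is part of that mean, which draws the mean towards it. By nearness among all genes Anln was 4th, Racgap1 13th, Prc1 48th, Cep55 63rd, Ect2 64th and Cit 191st. These distances are descriptions and carry no test.

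Markers of other cell types did not pass. In limma 0 of 9 leukocyte, 8 epithelial, 8 endothelial and 7 muscle and fat markers passed. At an unadjusted p under 0.05 Adgre1 was lower (−0.74), as were 3.74% of all genes, and Pecam1 was higher (1.16), as were 4.33%. Of 10 fibroblast markers 0 passed, 2 had a positive difference and the median was −0.18. Col3a1, a fibrillar collagen, was lower at an unadjusted p under 0.05 (−0.72, limma adjusted p = 0.432). In Col3a1 and Lox (−0.22) all G1 values lay below all G0 values, as in 3.28% of all genes. Of these lists, the medians per array overlapped between the groups in each of the 5. The part of any other cell type in the differences of the 6 genes was not tested, and centring leaves no level by which the fibroblast identity could be checked.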

How the data were processed

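RNA was measured on 8 Affymetrix arrays, 4 per group, and groups and replicate numbers were taken from the titles. The authors' deposited values are log2 expression, for which the submitters' processing notes name MAS5, centred on each probe set's median, as the values show (largest absolute median 5e-07). The steps that took logs and centred are not given in the sources used here, and base 2 is inferred from the range, −12.4 to 5.58. The 64 control probe sets were left out. Symbols came from the platform annotation, updated through Entrez identifiers with the names of GRCm38.p6. The representing probe set was the one with the most specific suffix (_at before _a_at, _s_at and _x_at), ties going to the lowest number.

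Tests used limma 3.58.1 in R 4.3.3 (lmFit, eBayes with a trend, two-sided), with 5 residual degrees of freedom and 2.34 prior ones. The covariate was the labelling batch, since the labels give replicate 4 of each group kit revision 3 and another RNA input, and the rest revision 8. With centred values the trend follows no brightness, and no filter on level was possible. The fit was tested on simulated data. Named genes were the 6 with all probe sets, genes of the role lists past the threshold, the highest and lowest gene of each list, and the 10 nearest patterns. Kif23, Kif20b, Chmp2b, Vps4a, Diaph3, Net1, Cfl1, Actb, Adgre1, Pecam1, Col3a1 and Lox fall outside this rule and were named after their values were seen. The genes and lists were chosen with earlier results of these data known. Alternatives were other batch terms, array subsets, weights, scalings, variance models, a filter on tied values, other probe set rules, the replicate block and single arrays left out. The number of arrays limits the precision.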

Additional observations from a re-analysis of the deposited data

Results flagged for a closer look

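None of the 14 probe sets of the 6 genes had a single array standing apart in its group by Dixon's test at 95%. Of the 84 groups of 4 arrays tested, which are those of 42 named probe sets with these 14 included, 4 did, where chance flags about 1 in 20. All 4 belong to other named genes. Probe sets named after their values were seen, among them those of Cfl1 and Actb, were not among the 42. Incenp read 1.13 on G1 replicate 3, beside 0.94 to 0.97 on the other G1 arrays. Brca1 read −1.43 on G0 replicate 2 (others −0.91 to −0.86), and Plk4 read −1.48 on the same array (others −0.94 to −0.90). Septin4 read 0.44 on G0 replicate 3, beside −0.02 to 0.03 on the other G0 arrays.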

How the results depend on the processing

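Of the 6 genes 3 passed with 8 arrays and the labelled batch. This was 5 with no batch covariate, 5 with the spike-in batch and 5 with array weights, and 0 in labelled batch 1 only or with the replicate block. All 6 were higher at an unadjusted p under 0.05 in limma in both of the latter. The 4 probe sets became 7, 8 and 7 under the first 3 of these and 0 under the other two. The 95 genes over the whole table became 138 with no batch covariate, 183 with the spike-in batch, 99 with array weights, 31 on the arrays with spike-ins, and 0 in batch 1 only or with the replicate block, where 1596 and 1456 were at an unadjusted p under 0.05 in limma. The 9 genes of the other cytokinesis lists became 13 with no batch covariate and 12 with the spike-in batch, and stayed 9 with array weights. They became 4 on the arrays with spike-ins and 0 in batch 1 only and with the block. The replicate numbers are not stated to pair arrays, and the deviations of same-numbered arrays correlated at 0.07, 0.11, −0.14 and −0.14, so no pairs were used. The highest correlation between a G0 and a G1 array was 0.31, of G0 replicate 3 with G1 replicate 4, the arrays without spike-ins. Leaving out 1 array gave 0 to 4 genes of the 6, 0 to 5 probe sets, 0 to 67 genes in all and 0 to 8 of the lists. With the spike-in batch, an alternative chosen with the data in view, it gave 0 to 5, 0 to 7, 0 to 128 and 0 to 12, among them 58 genes in all without G0 replicate 3, and 36 genes and 2 of the probe sets without G1 replicate 2. With 7 arrays fewer degrees of freedom remain; the cause of each loss was not tested.

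Signs turned only in values that had not passed. Cit differed by −0.0078 with its quietest probe set, which is its 1458276_x_at. That probe set differed by 0.0183 on the arrays with spike-ins, 0.0012 with array weights, 0.0179 with arrays centred on their medians, 0.0807 with quantile normalization, and −0.1296 to 0.1752 with 1 array left out; with the spike-in batch as well, this range was −0.1407 to 0.164, with 0.0183 without G0 replicate 3 or G1 replicate 4. Chmp4c differed by −0.65 with its quietest probe set, Septin11 by −0.27 with the mean of its probe sets, and Clasp1 by 0.27 without G0 replicate 3 (−0.81 to 0.27 over the arrays left out). Prc1, Ect2, Racgap1, Anln and Cep55 kept a positive difference in every alternative run.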
